A study of Mus musculus with 9 samples.

Results

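Igfbp5 and 9 further genes of the insulin-like growth factor (IGF) system were followed in T15 cells, a murine peripheral T cell lymphoma (PTCL) line that lacks Smarcb1, a core subunit of the SWI/SNF chromatin remodelling complex. Igfbp5 was chosen by its fold change in SAHA against control, being among the genes most raised, and Igfbp2, Igfbp3, Igfbp4, Igfbp6, Igfbp7, Igf1, Igf1r, Igf2r and Insr because they encode a binding protein, a ligand or a receptor of the same system. These are 10 of the 35288 genes listed in the deposited count table. RNA-seq libraries came from 3 control cultures, 3 cultures given SAHA (vorinostat, an inhibitor of histone deacetylases; 1 µM, added 2 times in 72 h) and 3 Smarcb1-RE cultures, which carry a lentiviral Smarcb1 cDNA (pInducer20), were selected with G418 and received doxycycline (Dox, 0.5 µg/µl) for 72 h. All 9 libraries are of the one cell line. The sources differ on the control: the study's text calls the RNA-seq controls untreated T15 cells, whereas the labels describe a vehicle for SAHA and an empty plasmid for re-expression without assigning either to the 3 control libraries. What transduction, G418 and Dox did therefore cannot be told apart from what Smarcb1 did. All Smarcb1-RE titles carry the letter A, and whether they stand for one clone is not stated. The study describes the 3 libraries per group as biological replicates. It reports strong apoptosis of T15 cells at 1 µM SAHA, with the great majority of cells dead. For Smarcb1 re-expression it reports slower growth, with viability and cell cycle unaffected. The part of dying cells in the SAHA values, against control or Smarcb1-RE, was not tested.

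IGF1 and IGF2 are secreted ligands that signal for growth and survival through the receptor tyrosine kinase IGF1R, to which the insulin receptor INSR is closely related. IGF2R, the mannose 6-phosphate receptor, carries lysosomal enzymes and takes up IGF2 for degradation without kinase signalling, and in mice its gene is imprinted. The binding proteins IGFBP1 to IGFBP6 hold IGFs outside the cell with high affinity and can limit or prolong their action, and IGFBP7 is a relative that binds them weakly. IGFBP5 is best known from bone, muscle and the involuting mammary gland.

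Promoter sequence is shown for the 3 IGF genes with a RefSeq entry whose SAHA libraries all lay above the control libraries, Igfbp5, Igfbp4 and Igf2r. The sequences (RefSeq, GRCm38.p6) run 5′ to 3′ on the strand of the gene and end just before its start, except that the Igfbp5 run stops 19 bases short of the RefSeq start, where the first exon of GENCODE begins. The Igfbp5 run is chr1:72874885-72875115 on the minus strand, with a GCCNNNGGC match (a palindrome bound by AP-2 factors) in capitals at -64 to -56 from the RefSeq start.
Igfbp5: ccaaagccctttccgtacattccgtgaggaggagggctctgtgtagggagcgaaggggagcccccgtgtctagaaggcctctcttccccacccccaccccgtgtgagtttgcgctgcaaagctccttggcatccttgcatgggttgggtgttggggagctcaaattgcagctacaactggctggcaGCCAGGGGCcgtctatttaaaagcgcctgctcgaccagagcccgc
The Igfbp4 run is chr11:99040994-99041243 on the plus strand, with TATAAA (the TATA box) in capitals at -28 to -23.
Igfbp4: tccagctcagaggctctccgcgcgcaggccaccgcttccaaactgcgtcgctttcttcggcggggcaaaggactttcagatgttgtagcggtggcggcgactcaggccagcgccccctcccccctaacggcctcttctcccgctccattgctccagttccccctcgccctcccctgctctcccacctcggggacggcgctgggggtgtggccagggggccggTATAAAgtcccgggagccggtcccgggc
The Igf2r run is chr17:12769707-12769956 on the minus strand, with GGGCGG (the GC box) in capitals at -75 to -70, -31 to -26 and -25 to -20.
Igf2r: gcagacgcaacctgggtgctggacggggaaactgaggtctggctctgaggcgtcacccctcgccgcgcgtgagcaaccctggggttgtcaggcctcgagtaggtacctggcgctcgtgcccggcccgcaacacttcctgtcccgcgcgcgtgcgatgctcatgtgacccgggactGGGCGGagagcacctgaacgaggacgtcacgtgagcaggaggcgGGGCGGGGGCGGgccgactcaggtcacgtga

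In the 250 bases before each start, 5 motifs were searched on both strands. TATAAA was found in 12.4%, GGGCGG in 32.7%, CCAAT in 33.8%, GCCNNNGGC in 13.7% and CANNTG (the E-box) in 66.2% of 32851 mouse promoters. Apart from the capitals, Igfbp5 and Igfbp4 had 1 CANNTG match each and Igf2r had 4, and none of the 3 windows held CCAAT. The windows of Igfbp5, Igfbp4 and Igf2r thus shared CANNTG and no other motif of the 5. Their GC content was 58.8%, 69.2% and 69.2%, and the ratio of observed to expected CpG was 0.463, 0.748 and 0.913, against medians of 52.4% and 0.373 over all promoters. Among the genes without counts, Igfbp3 and Igfbp7 had 73.2% and 74.0% GC and Igf1 had 52.8%. An entry was found for 9 of the 10 genes (not for Insr). In the 3 windows shown, no match overlapped another. The matches describe letters, and binding was not measured.

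The libraries held between 20900424 and 24941408 estimated counts. Levels are given as rounded counts per library or as counts per 1000000 (CPM, library sizes scaled by edgeR's TMM factors). In one library, 3 counts corresponded to 0.123 to 0.133 CPM, taken as the limit of detection for counting error only. Smarcb1 had 2, 5 and 8 counts in control, 7, 13 and 3 with SAHA and 151, 147 and 142 in Smarcb1-RE, through which it passed the filter on low counts. On the log2 scale Smarcb1 rose by 4.89 (SE 0.36, adjusted p = 6.19e-08, edgeR) in Smarcb1-RE, and its value in SAHA was 0.66 (SE 0.52, adjusted p = 0.285). Of 17 T cell markers, 13 or 14 per group exceeded 3 counts in a library, and their summed level was 5413 to 6324 CPM over the 9 libraries. Cd8a had mean levels of 690 to 1011 CPM, whereas Cd4 had no counts and Cd2 and Cd5 at most 3 in any library. Control replicate 1 stood apart from the other control libraries (chi-square per gene of 12.6 and 14.1 with them, against 2.07 to 4.55 in the other replicate pairs), and values without it are given for Igfbp5 and where a call changes. In bulk RNA, fewer cells with a transcript and less transcript per cell cannot be told apart.

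Igfbp5 (ENSMUSG00000026185; chromosome 1, 72857932 to 72874884, minus strand, GRCm38) is a protein-coding gene that overlaps no other. It was barely detected in control cells, with 7, 7 and 6 counts, and had 143, 137 and 178 counts in SAHA-treated cells and 47, 44 and 39 in Smarcb1-RE cells. The 3 groups did not overlap, with control lowest, Smarcb1-RE in between and SAHA highest. The level was 0.280 ± 0.0289 CPM (SD, n = 3) in control, 6.64 ± 0.892 CPM (SD, n = 3) in SAHA and 1.88 ± 0.173 CPM (SD, n = 3) in Smarcb1-RE.

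Under SAHA the fitted level of Igfbp5 was 23.3-fold that of control, a log2 fold change of 4.54 (SE 0.21). This difference is the one by which the gene was chosen, so it is given as a description without a test. Among the 11319 genes whose log2 CPM averaged at least 1, Igfbp5 was number 3 by log2 fold change, just below Btn1a1, which encodes a butyrophilin (4.97), and just above Gsta4, which encodes a glutathione S-transferase (4.44). Among all 13697 genes tested, it was number 21. The level of Igfbp5 in Smarcb1-RE was 3.53-fold lower than in SAHA, likewise without a test.

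Smarcb1 re-expression was not used in choosing the gene, although both comparisons use the same 3 control libraries. Igfbp5 was upregulated in Smarcb1-RE by 2.72 on the log2 scale (SE 0.24, adjusted p = 2.74e-07, edgeR), which is 6.60-fold. By this fold change it was number 124 of those 11319 genes. When control replicate 1 was left out, the values were 2.76 in Smarcb1-RE and 4.59 in SAHA. The gene passed the filter on low counts through its SAHA and Smarcb1-RE libraries, since all control libraries had fewer than 10 counts.

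**Figure D1:**
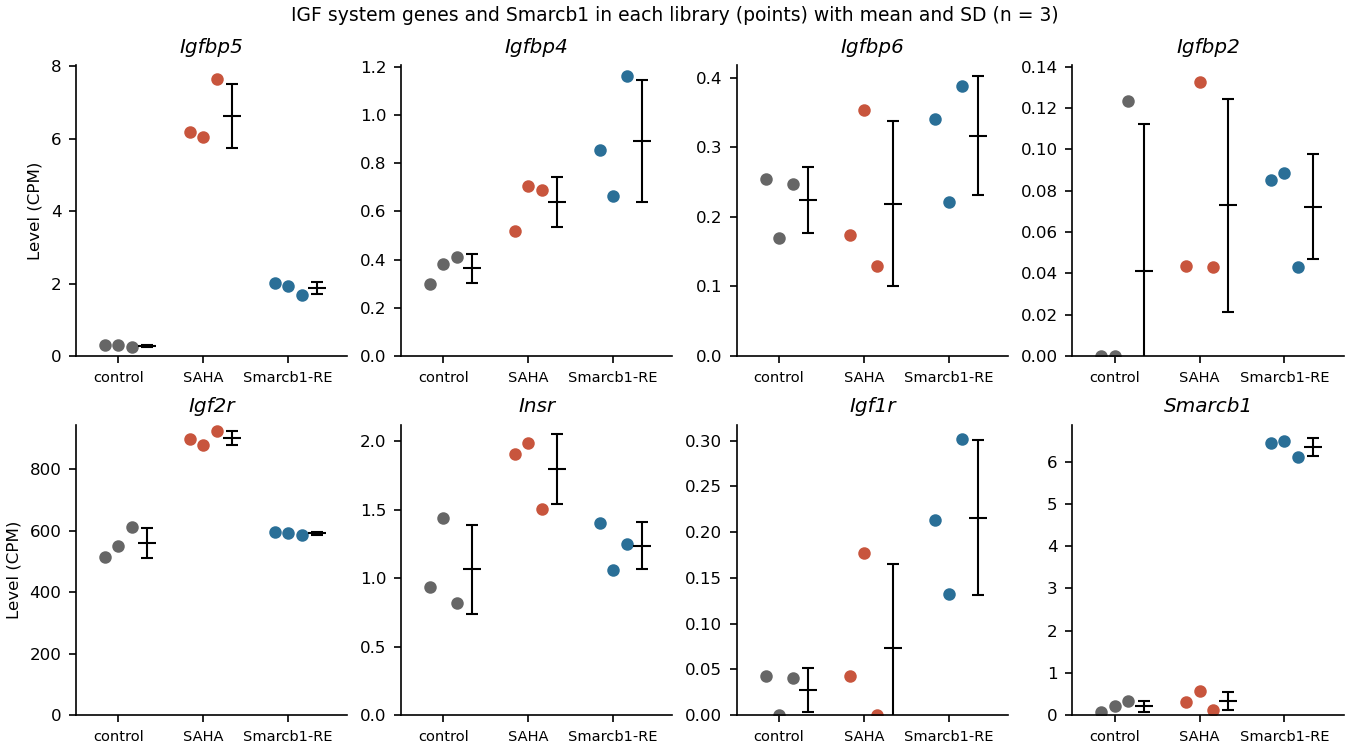
Level in CPM (y axis, linear, from 0 and scaled separately for each gene) of the 7 IGF system genes with counts and of Smarcb1 in control, SAHA and Smarcb1-RE libraries (x axis). Each point is a library, and the bar beside it is the mean ± SD of 3. Igfbp5 forms 3 separate levels at 0.280, 6.64 and 1.88 CPM, Igf2r and Insr are highest in SAHA, and Igfbp4 and Igf1r have their highest mean in Smarcb1-RE.

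Igfbp2 is the nearest neighbour of Igfbp5, 5.46 kb away in tail-to-tail orientation on chromosome 1 (72824503 to 72852474, plus strand). It encodes a binding protein that prefers IGF2. Igfbp2 had 0, 0 and 3 counts in control, 1, 3 and 1 with SAHA and 2, 2 and 1 in Smarcb1-RE, at or below the limit of detection in every library. It failed the filter on low counts, and no difference was detectable at this depth. Within 500 kb of Igfbp5, the other genes tested were Xrcc5 (subunit of the Ku complex of DNA repair), Smarcal1 (an annealing helicase) and Rpl37a (a ribosomal protein). In SAHA their log2 fold changes were -0.88 (SE 0.05, adjusted p = 1.48e-08, edgeR) for Xrcc5, -0.28 (SE 0.05, adjusted p = 0.000179) for Smarcal1 and -0.01 (SE 0.07, adjusted p = 0.943) for Rpl37a. In Smarcb1-RE they were -0.46, -0.25 and -0.63, all with adjusted p at or below 0.000366. None of the 3 rose in either comparison. Rpl37a has pseudogene copies, so its value is uncertain. Tnp1, the nearest protein-coding gene on the other side, 140 kb away, had no counts.

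**Figure D2:**
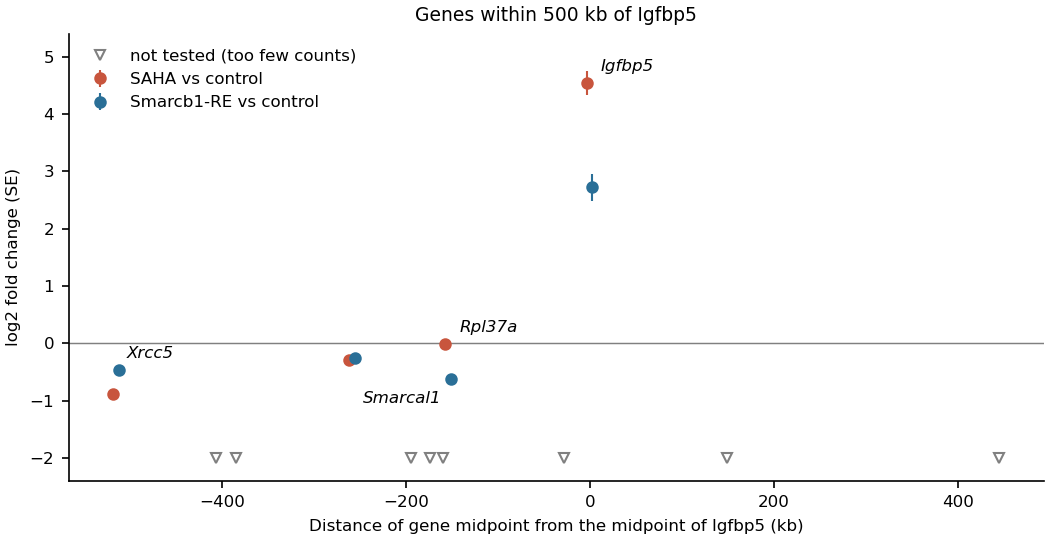
log2 fold change with its SE (y axis) of the genes tested within 500 kb of Igfbp5, placed by the distance of their midpoint from that of Igfbp5 in kb (x axis), in SAHA against control (red) and Smarcb1-RE against control (blue). Open triangles at the foot of the plot mark 8 genes with too few counts to test, Igfbp2 among them. Igfbp5 lies at 4.54 and 2.72, whereas Xrcc5, Smarcal1 and Rpl37a lie at or below 0.

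Igfbp4 (ENSMUSG00000017493; chromosome 11, 99041244 to 99054392, plus strand) encodes a binding protein that restrains IGF action until it is cleaved by pappalysin. It had 7, 9 and 10 counts in control, 12, 16 and 16 with SAHA and 20, 15 and 27 in Smarcb1-RE. Both treated groups lay above control without overlap, and they overlapped each other. The level was 0.363 ± 0.0587 CPM (SD, n = 3) in control, 0.638 ± 0.103 CPM in SAHA and 0.893 ± 0.252 CPM in Smarcb1-RE. Igfbp4 was upregulated in Smarcb1-RE, with a log2 fold change of 1.29 (SE 0.32, adjusted p = 0.00261, edgeR). In SAHA it was 0.80 (SE 0.34, adjusted p = 0.0497), just under the threshold, and 12 of 15 alternative settings put it over (adjusted p from 0.0478 to 0.151 over all 15, and 0.145 without control replicate 1). The difference of Smarcb1-RE from SAHA was 0.48 (SE 0.30, adjusted p = 0.157). Like Igfbp5, Igfbp4 passed the filter on low counts through its treated libraries.

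Igfbp6 (chromosome 15, 102144362 to 102149511, plus strand), a binding protein with a preference for IGF2, had 6, 4 and 6 counts in control, 4, 8 and 3 with SAHA and 8, 5 and 9 in Smarcb1-RE. The groups overlapped, and the gene was too low to be tested. Its ratio of CPM was 0.972 (95% counting interval 0.448 to 2.10) in SAHA and 1.42 (0.712 to 2.89) in Smarcb1-RE, each against control, and both intervals span 1. Igfbp3, the main carrier of IGFs in serum (chromosome 11, 7206086 to 7213923, minus strand), and Igfbp7 (chromosome 5, 77349240 to 77408041, minus strand) had no counts in any of the 9 libraries. Of the 6 binding protein genes, Igfbp5 and Igfbp4 could be tested, and both were called higher in Smarcb1-RE, as were 39.2% of all genes tested.

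Igf1 (chromosome 10, 87858265 to 87937042, plus strand), the ligand gene, had no counts in any library, which allows a level of up to 0.123 to 0.133 CPM per library. The other ligand genes of the fixed list were also at or near the limit: Igf2 had 1, 7 and 2 counts in control, 2, 4 and 2 with SAHA and 0, 1 and 1 in Smarcb1-RE, and Ins1 and Ins2 had none. None of the 4 ligand genes passed the filter on low counts.

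Igf1r (ENSMUSG00000005533; chromosome 7, 67952827 to 68233668, plus strand) encodes the signalling receptor for IGF1 and IGF2. It had 1, 0 and 1 counts in control, 1, 4 and 0 with SAHA and 5, 3 and 7 in Smarcb1-RE. The Smarcb1-RE libraries lay above all control libraries and overlapped those of SAHA. The ratio of CPM in Smarcb1-RE to control was 7.74, with a 95% counting interval from 1.80 to 69.8 that covers counting error only. The gene failed the filter. In a fit without a filter on low counts its log2 fold change was 2.71 (SE 1.03, adjusted p = 0.0323, edgeR) in Smarcb1-RE and 1.21 (SE 1.20, adjusted p = 0.492) in SAHA, so its difference from control in Smarcb1-RE rests on 15 counts against 2.

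Insr (ENSMUSG00000005534; chromosome 8, 3122061 to 3279617, minus strand) encodes the insulin receptor, which also binds IGF2 in one of its isoforms. It had 22, 34 and 20 counts in control, 44, 45 and 35 with SAHA and 33, 24 and 29 in Smarcb1-RE. The SAHA libraries lay above both other groups, while Smarcb1-RE overlapped control. The level was 1.07 ± 0.327 CPM (SD, n = 3) in control, 1.80 ± 0.257 CPM in SAHA and 1.24 ± 0.173 CPM in Smarcb1-RE. In SAHA, Insr was upregulated with a log2 fold change of 0.76 (SE 0.25, adjusted p = 0.0188, edgeR), and in Smarcb1-RE the value was 0.22 (SE 0.26, adjusted p = 0.456). The difference of Smarcb1-RE from SAHA was -0.53 (SE 0.25, adjusted p = 0.0698), which passed the threshold in 3 alternatives, with separate fits to each pair of groups (0.0404), with at least 10 counts in every library (0.0489) and without control replicate 2 (0.0418). The SAHA call was lost without control replicate 1 (adjusted p = 0.0599), control replicate 3 (0.0781), SAHA replicate 1 (0.0543) or SAHA replicate 2 (0.0676).

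Igf2r (ENSMUSG00000023830; chromosome 17, 12682406 to 12769664, minus strand) was by far the most abundant of the 10 genes. It had 12125, 13020 and 14916 counts in control, 20749, 19913 and 21475 with SAHA and 13985, 13415 and 13602 in Smarcb1-RE. All SAHA libraries lay above all others, and the Smarcb1-RE libraries fell within the range of control in CPM. The level was 560 ± 49.6 CPM (SD, n = 3) in control, 901 ± 22.5 CPM in SAHA and 592 ± 5.23 CPM in Smarcb1-RE.

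SAHA upregulated Igf2r 1.61-fold, a log2 fold change of 0.69 (SE 0.05, adjusted p = 2.93e-07, edgeR). In Smarcb1-RE the value was 0.08 (SE 0.05, adjusted p = 0.191), and the difference of Smarcb1-RE from SAHA was -0.61 (SE 0.05, adjusted p = 4.78e-07). The value in Smarcb1-RE against control passed the threshold in 3 alternatives, at 0.14 without control replicate 3 (adjusted p = 0.0135), 0.14 with at least 10 counts in every library (0.0356) and 0.24 with library totals only (0.00238), where the median of all genes was 0.17. Less that median, Igf2r stood at 0.07 in both scalings. Igf2r lies over the antisense transcript Airn, which is not analysed here, and since the use of strand in the quantification is not given in the sources used here, reads of the overlap cannot be told apart.

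Per kb of merged exon, the order of the genes could be compared. Igf2r was first in every group, at 60.1 ± 5.33 CPM per kb (SD, n = 3) in control, 96.8 ± 2.42 in SAHA and 63.6 ± 0.562 in Smarcb1-RE, above 96.2% to 98.0% of 21879 protein-coding genes. In control, Igfbp6 followed at 0.201 CPM per kb, then Igfbp4 at 0.0822, Insr at 0.0775, Igfbp5 at 0.0466, Igfbp2 at 0.0223 and Igf1r at 0.00166. Library ranges of neighbours in this order overlapped between Igfbp4 and Insr, between Igfbp5 and Igfbp2 and between Igfbp2 and Igf1r. Igfbp5 moved from place 5 in control to place 2 in SAHA, at 1.10 CPM per kb and apart from Igfbp6 below it. In Smarcb1-RE it was also in place 2, at 0.313 CPM per kb, where its libraries overlapped those of Igfbp6 at 0.285. Even in SAHA, Igfbp5 exceeded only 54.8% of protein-coding genes by this measure, against 42.4% in control. Igf2r exceeded Insr 566-fold to 1101-fold per kb in single libraries. With the longest transcript as the gene length, Insr rose to 0.114 CPM per kb in control and 0.192 in SAHA, above Igfbp4 at 0.0947 and 0.167.

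**Figure D3:**
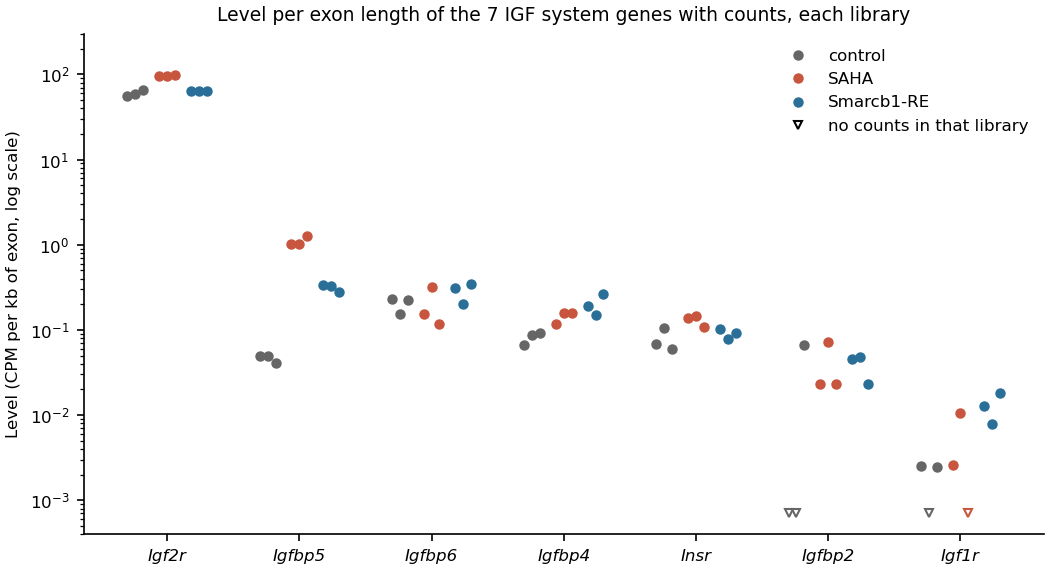
Level in CPM per kb of merged exon (y axis, log scale) of the 7 IGF system genes with counts (x axis), with a point for each control (grey), SAHA (red) and Smarcb1-RE (blue) library. Open triangles at the foot mark libraries without counts, which have no place on a log axis. Igf2r lies between 55.4 and 99.3, all other genes at or below 1.28.

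In all, 4 of the 10 genes passed the filter on low counts, and Igfbp3, Igfbp7 and Igf1 were without counts. In SAHA, all 4 were called higher, Igfbp5 among them by choice, beside 32.6% of all tested genes called higher and 34.3% called lower. In Smarcb1-RE, Igfbp5 and Igfbp4 were called higher and none lower, where 39.2% of all tested genes were called higher and 38.6% lower. In Smarcb1-RE against SAHA, Igf2r was called lower and none was higher, and Igfbp5 was also lower, which its choice by the SAHA libraries makes a description, where 36.8% of all tested genes were called lower and 37.7% higher. With so many genes called, these counts say nothing particular to the IGF system.

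Across the 9 libraries, Pearson's r of log2 CPM with Igfbp5 was 0.856 for Igf2r, 0.766 for Insr and 0.605 for Igfbp4. These are descriptions over libraries that fall into 3 groups. The 5 genes most like Igfbp5 among 11288 named genes whose log2 CPM averaged at least 1 were Ccng1, a target of p53 that encodes cyclin G1 (r = 0.997), Nfkbie, an inhibitor of NF-κB (0.996), Cacnb3, a calcium channel subunit (0.994), H2-Ab1, an MHC class II chain (0.994), and Nub1, which lowers NEDD8 conjugates (0.994). H2-Ab1 had 0.363 CPM in control, 13.7 in SAHA and 3.33 in Smarcb1-RE. The pattern was not particular to these 5, with r above 0.95 for 309 of the 11288 genes and above 0.9 for 629. The choice of 5 depended on the measure, since only 1 of them was among the 5 with the highest Spearman's rho.

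Around the 10 genes, 9 lists of IGF pathway genes, which include the 10, held 135 genes in the table, of which 95 were tested. In SAHA, 57 (60.0%) of these were higher and 20 (21.1%) lower, with a median log2 fold change of 0.34, beside 32.6%, 34.3% and a median of 0.00 over all genes tested. In Smarcb1-RE, 45 (47.4%) were higher and 28 (29.5%) lower, with a median of 0.27, beside 39.2%, 38.6% and 0.01. These shares over all genes tested are to be read beside the counts of each list below. Igfbp5, Igfbp4, Igf2r and Insr are among the 57 that were higher in SAHA, Igfbp5 by choice, and some genes are in several lists. The lists were drawn up with earlier results of these data known, so the counts are descriptions. The genes named below are, for each list and comparison, the 3 with the largest change among those called.

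Among 6 tested binding proteins and relatives, 4 were higher and 1 lower in SAHA, and 2 were higher and 2 lower in Smarcb1-RE. The 6 include Igfbp5, Igfbp4 and Igf2r, all called higher in SAHA, Igfbp5 by choice. Igf2r is also in the lists of receptors and of imprinted growth genes. Kazald1, which encodes an IGFBP-related secreted protein, had 2, 8 and 8 counts in control, 57, 83 and 88 with SAHA and 12, 7 and 9 in Smarcb1-RE. It rose in SAHA by 3.69 on the log2 scale (SE 0.36, adjusted p = 1.64e-06, edgeR), having passed the filter on low counts only through its SAHA libraries, and its Smarcb1-RE libraries overlapped control. Ccn4, a matricellular target of WNT signalling, had 268, 302 and 296 counts in control, 278, 247 and 281 with SAHA and 45, 61 and 49 in Smarcb1-RE. It fell in Smarcb1-RE with a log2 fold change of -2.43 (SE 0.12, adjusted p = 1.42e-09). Htra4, a serine protease placed in this list, fell in both, with log2 fold changes of -0.56 in SAHA and -1.50 in Smarcb1-RE.

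Of 10 tested proteases of binding proteins and their inhibitors, 5 were higher and 3 lower in SAHA, and 5 were higher and 2 lower in Smarcb1-RE. Stc2, an inhibitor of the pappalysins that cleave IGFBP4 and IGFBP5, had 8, 1 and 11 counts in control, 2, 0 and 1 with SAHA and 91, 90 and 96 in Smarcb1-RE. It rose in Smarcb1-RE by 3.81 on the log2 scale (SE 0.41, adjusted p = 2.31e-06, edgeR), the group through which alone it passed the filter on low counts. In SAHA it was called lower (adjusted p = 0.0158) although the libraries overlapped control, and the call was lost without control replicate 3 (0.0724) or SAHA replicate 2 (0.0565). The pappalysin genes themselves, Pappa and Pappa2, had at most 2 counts in any library. Ctsb, a lysosomal cysteine protease, rose from 156 CPM in control to 318 CPM in SAHA (log2 fold change 1.03, adjusted p = 6.00e-09) and had 158 CPM in Smarcb1-RE. Mmp14, a membrane metalloprotease, had 35, 6 and 31 counts in control, 26, 22 and 15 with SAHA and 49, 56 and 60 in Smarcb1-RE. Its mean was 1.00 CPM in control, 0.914 in SAHA and 2.38 in Smarcb1-RE, where it was called higher (log2 fold change 1.24, adjusted p = 0.0144, edgeR). With a library left out, that log2 fold change ran from 0.77 to 1.62 and the adjusted p reached 0.0453. Htra2, a serine protease, fell in both, with log2 fold changes of -0.43 in SAHA and -0.23 in Smarcb1-RE. The Htra2 call in Smarcb1-RE was lost with library totals only (-0.07, adjusted p = 0.401).

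Of 10 tested genes in the list of receptors, 6 were higher and none lower in SAHA, and 4 were higher and 1 lower in Smarcb1-RE. The list includes Igf2r and Insr, and also the enzymes Enpp1 and Ptpn1, which are not receptors and were both higher in SAHA. Lrp1, an endocytic receptor of the LDL receptor family, had 23, 28 and 30 counts in control, 216, 224 and 266 with SAHA and 196, 193 and 203 in Smarcb1-RE. It rose 9.00-fold in SAHA (log2 fold change 3.17, SE 0.13, adjusted p = 2.33e-09, edgeR) and 7.52-fold in Smarcb1-RE (2.91, SE 0.13, adjusted p = 8.30e-10). Enpp1, a phosphodiesterase that inhibits the insulin receptor, rose in SAHA from 1.63 to 5.46 CPM (log2 fold change 1.74, adjusted p = 4.26e-06) and stood at 1.69 CPM in Smarcb1-RE. Ptpn1, the phosphatase PTP1B that dephosphorylates the insulin receptor, rose in both, by 0.79 and 0.70 on the log2 scale. Insrr, an orphan receptor related to INSR, rose in Smarcb1-RE (log2 fold change 0.82, SE 0.05, adjusted p = 7.17e-09), and its value in SAHA was 0.02 (SE 0.05, adjusted p = 0.767).

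Of 17 tested adaptors and proximal signalling genes, 8 were higher and 4 lower in SAHA, and 6 were higher and 7 lower in Smarcb1-RE. Gab2, a docking protein, rose in both, by 1.61 and 1.65 on the log2 scale, as did the adaptor Sh2b2, 4.01-fold and 2.06-fold. Grb14, which inhibits the insulin receptor, had 187, 199 and 189 counts in control, 267, 289 and 283 with SAHA and 22, 30 and 27 in Smarcb1-RE. Its log2 fold change was 0.60 (SE 0.10, adjusted p = 0.000114, edgeR) in SAHA and -2.81 (SE 0.13, adjusted p = 8.00e-10) in Smarcb1-RE. Grb14 was thus called in opposite directions in the 2 comparisons.

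Of 33 tested genes of PI3K, AKT, FOXO and mTOR, 17 were higher and 10 lower in SAHA, and 14 were higher and 11 lower in Smarcb1-RE. The PI3K subunit genes Pik3cd and Pik3r2 rose in both comparisons, by 0.79 and 0.65 and by 0.78 and 0.95 on the log2 scale. The kinase gene Mtor rose by 0.92 and 0.43. Pik3r3, a regulatory subunit of PI3K, had 18.5 CPM in control, 18.4 in SAHA and 58.4 in Smarcb1-RE (log2 fold change 1.66, SE 0.06, adjusted p = 8.43e-11, edgeR). Eif4ebp1, a repressor of translation that mTOR inactivates, was lower in SAHA at -0.75 (SE 0.07, adjusted p = 9.37e-07) and higher in Smarcb1-RE at 1.05 (SE 0.06, adjusted p = 7.03e-09).

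The list of transcripts known to rise when FOXO factors are active had 17 tested genes, of which 14 were higher and 2 lower in SAHA and 13 higher and 3 lower in Smarcb1-RE. The medians were 0.67 and 1.17 on the log2 scale, beside 0.00 and 0.01 over all genes tested. Of all genes tested, 32.6% were higher and 34.3% lower in SAHA, and 39.2% and 38.6% in Smarcb1-RE. The list was drawn up with earlier results of these data known, so its counts are a description, and FOXO activity was not tested. FOXO factors are held out of the nucleus by AKT, but many of these transcripts are also under other control. Sesn3, a stress-responsive inhibitor of mTORC1, had 189, 227 and 215 counts in control, 933, 1114 and 1169 with SAHA and 1022, 1002 and 975 in Smarcb1-RE. Sesn3 rose by 2.40 (SE 0.09, adjusted p = 1.44e-09, edgeR) and 2.30 (SE 0.09, adjusted p = 2.51e-10). Ccng2, an atypical cyclin, rose 2.33-fold and 2.34-fold, and Txnip, an inhibitor of thioredoxin, 1.59-fold and 6.06-fold. The T cell genes of the list moved apart from these. Il7r, the receptor chain for IL-7, was higher in SAHA at 0.43 and lower in Smarcb1-RE at -2.35, S1pr1, a receptor for exit from lymphoid tissue, at 0.45 and -2.35, and Klf2, a quiescence factor, was lower in SAHA at -1.16 and higher in Smarcb1-RE at 1.27. These 3 genes were thus called in opposite directions by the 2 comparisons.

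Of 3 genes for IGF2 mRNA binding proteins, 2 were tested. Igf2bp3, an oncofetal RNA binding protein, had 6, 4 and 8 counts in control, 74, 61 and 77 in SAHA and none in Smarcb1-RE, and passed the filter on low counts only through SAHA. It rose in SAHA by 3.58 on the log2 scale (SE 0.29, adjusted p = 1.45e-06, edgeR), and in Smarcb1-RE, where it was called lower (adjusted p = 0.000169), it was at least 1.93-fold lower than in control, taking 3 counts per library as the floor. Of 8 imprinted growth genes in the table, 6 were tested, with 5 higher and none lower in SAHA and 2 higher and 1 lower in Smarcb1-RE. Cdkn1c, an inhibitor of cyclin-dependent kinases, rose by 1.25 and 2.24, and Peg3 by 1.80 and 1.23. Plagl1, a zinc finger factor of the imprinted gene network, rose in SAHA from 811 to 1466 CPM (log2 fold change 0.85, adjusted p = 7.37e-09) and had 774 CPM in Smarcb1-RE.

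**Figure D4:**
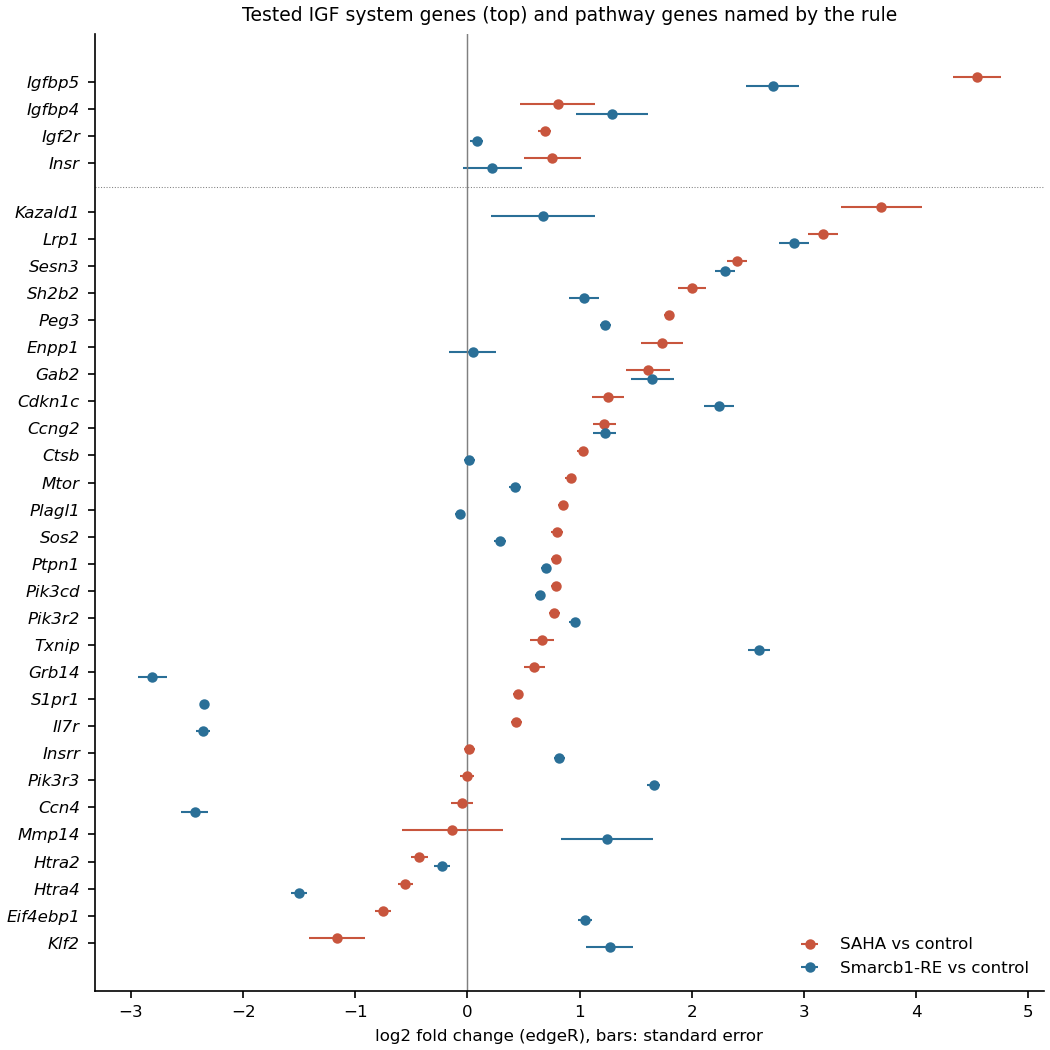
log2 fold change with its SE (x axis) in SAHA against control (red) and Smarcb1-RE against control (blue) of the 4 IGF system genes tested (above the dotted line) and of 28 pathway genes (below it, ordered by the value in SAHA; Igf2bp3 and Stc2, with near-empty groups, are left out). Igfbp5 has the largest values of the upper group, and Grb14, S1pr1 and Il7r lie right of 0 in SAHA and left of 0 in Smarcb1-RE.

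Fibroblast and other stromal cells are known sources of IGF binding proteins, so their markers were read beside Igfbp5 and Igfbp4. Of 12 stromal markers, 4 or 5 per group exceeded 3 counts in a library, and Col3a1, Dcn, Lum and Pdgfrb had at most 3 in every library. Their summed level was 9.18 to 10.9 CPM in control, 9.57 to 9.81 in SAHA and 72.2 to 77.0 in Smarcb1-RE, where Pdgfra, a growth factor receptor, rose from 7.56 to 67.1 CPM. Col1a1, a collagen chain, had 1, 5 and 0 counts in control, 17, 20 and 25 in SAHA and 11 in each Smarcb1-RE library, so that it passed the filter on low counts only through the treated libraries, with log2 fold changes of 3.34 (SE 0.56, adjusted p = 0.000176, edgeR) and 2.43 (SE 0.62, adjusted p = 0.00296). In SAHA, Pdgfra had 5.90 CPM and was called lower than in control (log2 fold change -0.36, SE 0.11, adjusted p = 0.0135, edgeR). Col1a2, a further collagen chain, was too low to test, at 8 counts over the control libraries, 3 with SAHA and 2 in Smarcb1-RE. The part of Col1a1- or Pdgfra-expressing cells in the values of Igfbp5 and Igfbp4 was not tested. Macrophage markers summed to 2.24 to 2.67 CPM in control, 6.19 to 7.71 in SAHA and 2.20 to 2.64 in Smarcb1-RE. In SAHA, Cd68 made up most of the sum, with a mean of 6.74 CPM against 1.69 in control. Csf1r, Adgre1, Cd14, Mrc1 and Fcgr1 had at most 3 counts in every library. Lyz2 and Itgam went the other way, exceeding 3 counts in a control library but in no SAHA or Smarcb1-RE library. Endothelial markers summed to 112 to 158 CPM with Cdh5, Kdr, Tek and Emcn at most at 3 counts, and hepatocyte markers to at most 0.128 CPM. B cell markers summed to 0.935 to 1.14 CPM in control, 1.24 to 1.86 in SAHA and 7.25 to 7.96 in Smarcb1-RE, with Cd79b at most at 3 counts in every library, and their part in the values of Igfbp5 and Igfbp4 was not tested.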

How the data were processed

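RNA-seq of T15 cells was analysed in 9 libraries (3 control, 3 SAHA, 3 Smarcb1-RE). The kit was directional and the reads single-end. The submitters' processing notes name FastQC 0.11.8, MultiQC 1.7, Salmon 0.14.1, DESeq2 1.22.2 and GRCm38. The authors deposited one table of estimated counts (expected counts) for 35288 Ensembl genes, neither normalized nor pooled, with 52.4% of nonzero values not whole. The annotation and the way transcripts were summed to genes are not given in the sources used here. Reads shared by related or overlapping genes make their values uncertain.

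Counts were rounded. Names and coordinates came from GENCODE M21 (GRCm38), which held 99.5% of identifiers. Promoters came from the RefSeq table (GRCm38.p6). edgeR 4.0.16 in R 4.3.3 was used (TMM, filterByExpr with a minimum count of 10, quasi-likelihood test, 1 fit to 9 libraries), with Benjamini-Hochberg adjustment over 13697 genes and calls at an adjusted p under 0.05. The SE was |log2 fold change| over the root of the F statistic. The common biological coefficient of variation was 5.24%. Levels per kb are CPM divided by the merged exon length. The code was tested on simulated counts.

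Named were the 10 genes, Smarcb1, neighbours within 500 kb of Igfbp5, the 5 genes with the highest r with it, the genes next to it in the SAHA order, and, per list and comparison with control, the 3 called genes that changed most on the log2 scale with a mean log2 CPM of at least 0. Some genes of these lists are not reported here. The genes and lists were chosen with earlier results of these data known. Further marker genes were named to describe their lists. P-values set the difference between groups against the spread between libraries of a single cell line. They do not cover variation between lines or clones. Groups follow the labels' treatment field and titles. The 16 alternatives were DESeq2 1.42.0, median-ratio factors, library totals only, separate fits, no filter, at least 10 counts in every library, a replicate block and leaving out each of the 9 libraries, and, for levels and likeness, the longest transcript and Spearman's rho.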

Additional observations from a re-analysis of the deposited data

How the results depend on the processing

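Of 186 values of the tested IGF genes under the alternatives, none changed sign, 164 kept their side of the threshold, 16 lost a call and 6 gained one. The 164 include 15 values of Igfbp5 in SAHA against control and 15 in Smarcb1-RE against SAHA. Since Igfbp5 was chosen by its SAHA libraries, those values are descriptions, and nothing is drawn from their keeping a side. The number of the 10 genes called higher fell from 4 to 2 in SAHA and from 2 to 1 in Smarcb1-RE with at least 10 counts in every library, which removes Igfbp5 and Igfbp4. The 1 gene then called in Smarcb1-RE was Igf2r, which was not called before. With a library left out it was 2 to 3 in SAHA and 2 to 3 in Smarcb1-RE. It was 2 in SAHA without control replicate 1, control replicate 3 or SAHA replicate 2, where Igfbp4 and Insr lost their calls. Insrr in SAHA, near 0 throughout, was -0.00143 without a filter on low counts and between -0.0308 and 0.0526 with a library left out.

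Replicate numbers recur in each group, but libraries with the same number did not deviate together (correlation across genes -0.0717 to 0.0366, mean -0.00342, against 0.00169 for different numbers). With the replicate block, 4366 genes were higher and 4664 lower in SAHA, 5335 and 5253 in Smarcb1-RE, and 5141 and 4996 in Smarcb1-RE against SAHA, beside 4464 and 4700, 5371 and 5282, and 5170 and 5042 without it. Of the IGF genes, Igfbp4 in SAHA alone lost its call with the block (adjusted p = 0.0622). Library totals only shifted the all-gene median in Smarcb1-RE against control from 0.01 to 0.17 (log2). Pathway genes were recomputed for comparisons with control in which they were called, and for Insrr in both, and 866 of 872 such values kept their direction and call. Depth limits Igf1r, Igfbp2 and Igfbp6, at 22, 13 and 53 counts over all libraries.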

Other observations

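Insrr, named among the receptors, had a higher level per kb than Igf2r in every library. It lies on chromosome 3 from 87796951 to 87816101 (plus strand) and overlaps Pear1 on the minus strand. Insrr had 17528, 16249 and 18723 counts in control, 17944, 16544 and 16724 with SAHA and 30785, 28828 and 29941 in Smarcb1-RE. Per kb of exon this was 2.03 to 2.36 times Igf2r in control, 1.27 to 1.41 times in SAHA and 3.50 to 3.59 times in Smarcb1-RE, and it placed Insrr at number 289, 294 and 106 of 21879 protein-coding genes. Insrr encodes an orphan receptor kinase that responds to alkaline medium and is best known from kidney.

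Pear1 had 47.3 ± 2.58 CPM (SD, n = 3) in control, 43.4 ± 1.85 CPM in SAHA and 27.5 ± 1.09 CPM in Smarcb1-RE, and was looked at after the values of Insrr were seen. In Smarcb1-RE, Pear1 was lower (log2 fold change -0.78, SE 0.06, adjusted p = 4.14e-08, edgeR) and Insrr higher than in control. The use of strand in the quantification is not given in the sources used here, so reads of overlapping parts cannot be told apart.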
